A study of Sus scrofa with 10 samples.

Results

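The 33 genes described here encode the enzymes of glycolysis, the lactate dehydrogenases, the mitochondrial pyruvate carrier, the pyruvate dehydrogenase complex with its kinases, and the carboxylating branch of pyruvate metabolism. They were chosen by name from the 24358 genes listed, 30 through the gene name in the deposited table and 3 (ALDOA, LDHA and PDHA1) through their Ensembl identifier. LDHB has a second listed gene of the same name, and the one with the most counts was used. The values come from RNA sequencing of 10 pig (Sus scrofa) morula samples. The morulae developed in culture from matured oocytes that received an siRNA, a short RNA that triggers the decay of its target, by injection and were then activated parthenogenetically, that is without sperm. The siRNA was aimed at DDB1 for 5 libraries (DDB1_KD) and was non-specific for the other 5 (NC). Both groups therefore share the injection, the activation and the absence of a paternal genome, and the sources used here do not give the number of embryos behind each library. The labels do not tell whether replicates were cultured separately, so p-values refer to library-to-library spread, which may be technical in part.

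Glycolysis splits glucose into pyruvate in the cytosol. Lactate dehydrogenase interconverts pyruvate and lactate. The mitochondrial pyruvate carrier brings pyruvate to the pyruvate dehydrogenase complex, which makes acetyl-CoA for the citrate cycle, and pyruvate dehydrogenase kinases switch that complex off. Several steps have isozymes encoded by separate genes, and the mixture of isozymes is characteristic of a tissue. Cleavage-stage mammalian embryos are known for using pyruvate and lactate as fuels, with glucose use increasing towards the blastocyst.

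Libraries held 32466912 to 50911295 estimated counts, of which 0.365 to 0.692% fell on the 33 genes. DDB1, an adaptor of CUL4 ubiquitin ligases, averaged 1.27 ± 0.23 FPKM (SD, n = 5) in DDB1_KD and 3.37 ± 0.71 (SD, n = 5) in NC, with no overlap. Its log2 fold change was -1.39 (SE 0.28), with an adjusted p of 0.977 in the edgeR quasi-likelihood test, Benjamini-Hochberg over 8476 genes, and 0.0069 in DESeq2. All 10 of the listed embryo markers (POU5F1, SOX2 and KRT8 among them) were above the filter described next, a mean over the libraries. Their summed level was 315 to 836 FPKM in DDB1_KD and 490 to 981 in NC. Single markers varied between libraries: KRT8 ranged from 0.0812 to 195 FPKM and SOX2 from 0.286 to 2.39. Maternal oocyte transcripts were also above the filter, 11 of 11 listed, with summed levels of 190 to 710 FPKM in DDB1_KD and 169 to 289 in NC. CCNB1 was the largest part of these sums, with means of 253 FPKM in DDB1_KD and 172 in NC. BTG4 followed at 71.1 and 27.8, reaching 266 in its highest library. Each other gene of the list averaged 20.6 FPKM (BMP15) or less in DDB1_KD and 7.80 (OOEP) or less in NC. Of the cumulus cell markers, the cells that surround the oocyte, 1 of 9 listed genes passed the filter, and CYP11A1 and FSHR were at 0 in every library. The cumulus list summed to 6.63 to 29.1 FPKM in DDB1_KD and 5.43 to 13.4 in NC. None of 7 fibroblast markers and 2 of 6 blood cell markers passed the filter.

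Levels are given as FPKM, fragments per kilobase of transcript, scaled to library depth, summed over a gene's listed isoforms. Of the 33 genes, 24 reached a mean deposited gene FPKM of 1 over the 10 libraries and were tested. The other 9 (PFKM, PFKP, PFKFB2, PFKFB3, PFKFB4, ENO2, ENO3, PDK2 and PCK2) did not. None of the 24 passed an adjusted p of 0.05 in edgeR, against a background of 0.0% of all genes tested. None passed in limma or in DESeq2 either, where the background was 0.0236%. At an unadjusted p under 0.05, edgeR, limma and DESeq2 each counted 1 of the 24, in edgeR ENO1, and the edgeR background was 2.89%. None of the 24 had groups that did not overlap, where 0.378% of all genes tested did. In the fit, 10 of the 24 had a value above 0 (higher in DDB1_KD) and 14 below 0. The median of the 24 log2 fold changes was -0.05, beside 4240 higher and 4236 lower and a median of 0.00036 over all genes tested. In bulk samples, fewer cells of a type and less RNA per cell cannot be told apart.

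**Figure D1:**
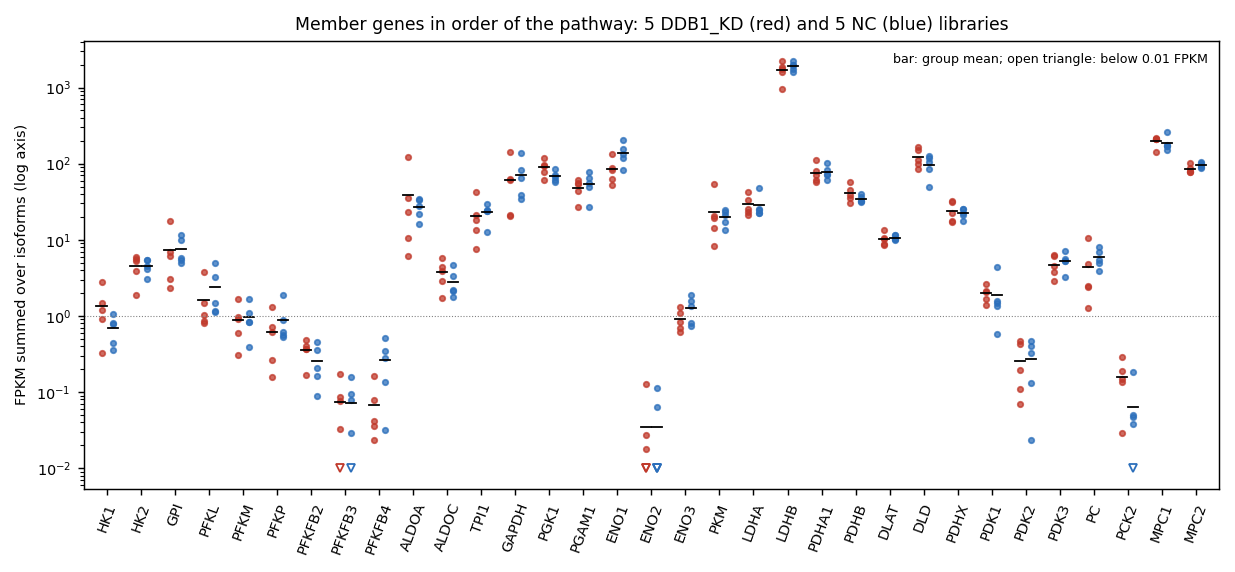
FPKM summed over isoforms (log axis) of each of the 33 genes, in pathway order, in 5 DDB1_KD (red) and 5 NC (blue) libraries, with bars at group means and open triangles for libraries below 0.01 FPKM. LDHB lies about an order of magnitude above every other gene, and the 2 groups overlap in every gene.

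Per length, LDHB was the most abundant of the 33 in every library, with a mean level of 1788 FPKM over the 10. It alone held 43.5 to 61.6% of the counts of the 33 genes. MPC1 followed at 192 FPKM, then ENO1 at 112, DLD at 110, MPC2 at 90.6, PGK1 at 78.9, PDHA1 at 77.0, GAPDH at 66.4 and PGAM1 at 51.4. Neighbours in this order were not separated beyond their spread: ENO1 lay above DLD in 5 of 10 libraries and PGK1 above PDHA1 in 4 of 10. PDHB, ALDOA, LDHA, PDHX, TPI1 and PKM ranged from 37.9 down to 21.6 FPKM. DLAT (10.5), GPI (7.39), PC (5.10), PDK3 (5.03), HK2 (4.55) and ALDOC (3.28) were lower. PFKL, PDK1, ENO3 and HK1 averaged 1.99 to 1.02 FPKM, and the remaining 8 lay at 0.928 (PFKM) or less, down to 0.035 for ENO2. The place of MPC1 rests on a listed length of 330 bases: by counts it was at 1849 to 4628 per library, below ENO1, DLD, PDHA1, PDHB and PGK1 in each.

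Hexokinase traps glucose as glucose 6-phosphate, and HK1 and HK2 are its isozymes, both associated with the mitochondrial outer membrane. HK2 (chromosome 3, 68153824 to 68231615, minus strand, build susScr11) was at 5.62, 3.94, 1.90, 5.96 and 5.32 FPKM in DDB1_KD replicates 1 to 5 and at 4.16, 5.47, 3.03, 5.51 and 4.55 in NC replicates 1 to 5. The groups overlapped, and the log2 fold change was -0.01 (SE 0.31). HK1 (chromosome 14, 72382912 to 72460924, plus strand) was at 2.82, 0.906, 0.326, 1.48 and 1.19 FPKM in DDB1_KD and 0.796, 0.803, 0.441, 1.07 and 0.357 in NC. In FPKM its highest library was DDB1_KD replicate 1 and its lowest DDB1_KD replicate 3, so that the DDB1_KD range enclosed that of NC. In log2 depth-scaled counts NC replicate 5 was the lowest, at -1.29 from the mean of the gene, beside -1.22 for DDB1_KD replicate 3. The log2 fold change of HK1, 0.94 (SE 0.54), had an unadjusted p of 0.107 and an adjusted p of 0.977 (edgeR quasi-likelihood test, Benjamini-Hochberg). HK1 was below HK2 in all 10 libraries.

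As a share of the HK1 and HK2 level, HK2 made up 66.6, 81.3, 85.3, 80.1 and 81.8% in DDB1_KD and 83.9, 87.2, 87.3, 83.8 and 92.7% in NC. The mean share was 79.0% ± 7.2 (SD, n = 5) in DDB1_KD and 87.0% ± 3.6 (SD, n = 5) in NC, and 3 DDB1_KD libraries besides replicate 1 lay below every NC library. The difference of -7.95 percentage points had a two-sided exact permutation p of 0.0238, the smallest of 9 isozyme shares compared, and 0.214 after Benjamini-Hochberg adjustment over the 9. The smallest p that 5 against 5 allows is 0.00794. Without DDB1_KD replicate 1 the difference was -4.85 points, with an exact permutation p of 0.0476, or 0.429 adjusted. The unadjusted p was 0.0635 without NC replicate 2, 3 or 5, and below 0.05 without any other single library. With the replicate number as a block it was 0.0625, the smallest that 5 pairs allow. None of the 9 shares passed the adjusted threshold.

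**Figure D2:**
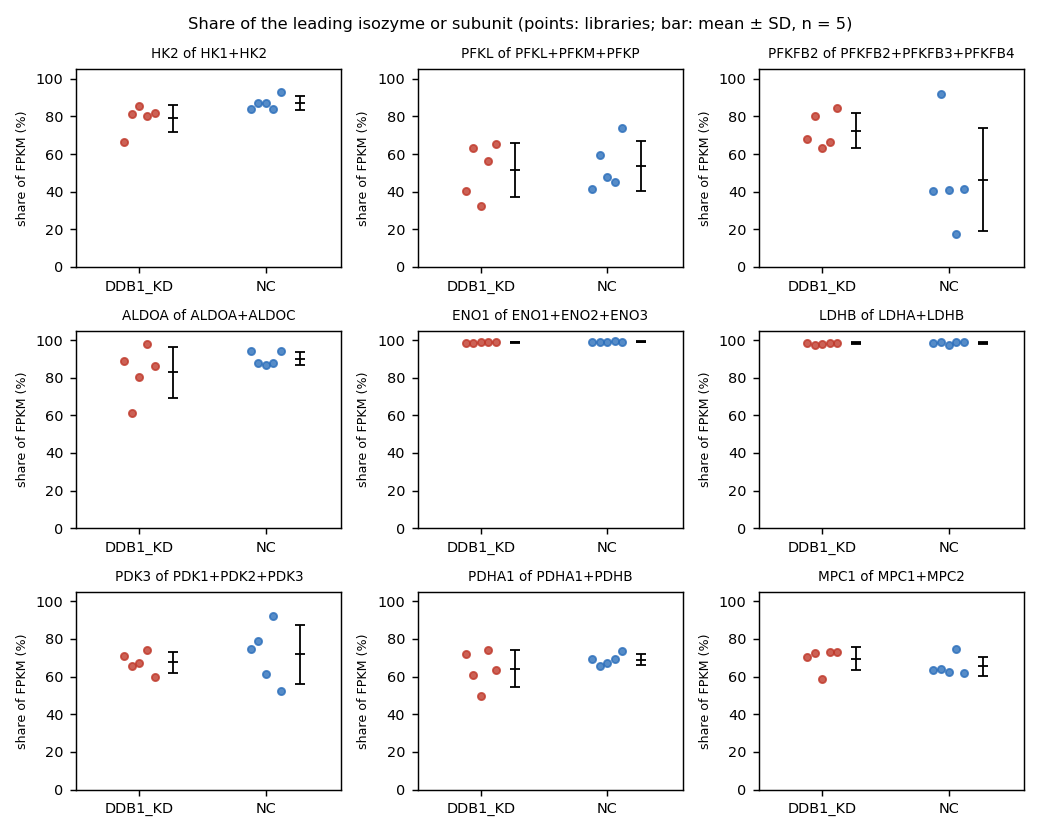
Share of FPKM (%) held by the leading gene of 7 isozyme families and 2 pairs of partner subunits, in each DDB1_KD (red) and NC (blue) library, with mean ± SD (n = 5). HK2 averaged 79.0% against 87.0%, ENO1 and LDHB held at least 97.3% in every library, and the groups overlapped in all 9 panels.

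GPI converts glucose 6-phosphate to fructose 6-phosphate. It ranged from 2.33 to 17.8 FPKM in DDB1_KD and from 5.02 to 11.6 in NC, with a log2 fold change of -0.13 (SE 0.47). Phosphofructokinase commits the sugar to glycolysis, and its liver (PFKL), muscle (PFKM) and platelet (PFKP) subunits were all present at low levels. PFKL was at 1.02, 1.50, 0.816, 3.84 and 0.864 FPKM in DDB1_KD and 1.16, 1.47, 3.24, 1.12 and 4.90 in NC. The 3 highest values were DDB1_KD replicate 4 and NC replicates 3 and 5. The fit gave -0.60 (SE 0.51, unadjusted p 0.263 in edgeR). It was -1.11 when DDB1_KD replicate 4 was left out and -0.19 when NC replicate 5 was. PFKM averaged 0.889 ± 0.507 FPKM (SD, n = 5) in DDB1_KD and 0.967 ± 0.463 (SD, n = 5) in NC, and PFKP 0.610 ± 0.451 and 0.896 ± 0.583.

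No phosphofructokinase subunit dominated. PFKL held 32.4 to 74.0% of the summed level, and over 50% in 5 of 10 libraries, while PFKM held 12.8 to 38.9% and PFKP 11.1 to 28.8%. The mean PFKL share was 51.6% in DDB1_KD and 53.5% in NC, with an exact permutation p of 0.841 (two-sided, n = 5 and 5). The sign of that difference changed when DDB1_KD replicate 1 or 3, or NC replicate 5, was left out. PFKFB2, PFKFB3 and PFKFB4 make and break fructose 2,6-bisphosphate, the activator of phosphofructokinase. None exceeded 0.512 FPKM in any library. PFKFB3 had no counts in 1 DDB1_KD and 1 NC library, where the limit that a count of 0 allows is 3 counts.

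PFKFB2 supplied 67.7, 80.2, 63.4, 66.1 and 84.3% of the 3 PFKFB levels in DDB1_KD, and 40.6, 91.8, 40.7, 17.3 and 41.4% in NC. All NC libraries except replicate 2 lay below the DDB1_KD range. The group means were 72.4% ± 9.3 (SD, n = 5) and 46.4% ± 27.4 (SD, n = 5), with a two-sided exact permutation p of 0.0952, or 0.429 adjusted over the 9 shares. From counts in place of FPKM the difference was 22.0 points, with an exact permutation p of 0.175. Counts were few: 26 to 62 per DDB1_KD and 16 to 54 per NC library for PFKFB2, and 0 to 71 and 0 to 53 for PFKFB3. Without NC replicate 2 the difference of 26.0 points became 37.4 points, with an exact permutation p of 0.00794 and an adjusted 0.0714. That omission removes the only NC library not below the DDB1_KD range. The groups then cannot overlap, and this p is the smallest that the remaining libraries allow. PFKFB4 was at 0.0795, 0.0238, 0.0419, 0.161 and 0.036 FPKM in DDB1_KD and 0.279, 0.0317, 0.512, 0.347 and 0.137 in NC. This rests on 6 to 21 counts per DDB1_KD library and 8 to 100 per NC library. In the edgeR fit without a filter its log2 fold change was -1.94 (SE 0.86), with an unadjusted p of 0.04 and an adjusted p of 0.688.

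Aldolase cleaves fructose 1,6-bisphosphate into 2 triose phosphates. ALDOA (chromosome 3, 18234775 to 18263324, plus strand) was at 35.6, 6.17, 23.4, 120.6 and 10.7 FPKM in DDB1_KD and 27.5, 16.0, 22.1, 33.9 and 33.4 in NC. DDB1_KD held both the highest library, replicate 4, and the 2 lowest, replicates 2 and 5. The log2 fold change from counts was -0.17 (SE 0.45). It was -0.71 without DDB1_KD replicate 4 and 0.07 without replicate 2. In summed isoform FPKM ALDOA exceeded ALDOC in all 10 libraries, with a share of 61.0 to 97.7%. In DDB1_KD replicate 2 the order was the reverse by counts (946 for ALDOA, 1006 for ALDOC), and the lowest ALDOA share by deposited gene FPKM was 45.2%.

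The 10 listed ALDOA isoforms were used unevenly. A 10-exon isoform of 1467 bases (ENSSSCT00000048326) carried 113.7 of the ALDOA FPKM in DDB1_KD replicate 4 and 22.9 in replicate 1, and 0 to 7.79 in the other 8 libraries. A 9-exon isoform of 4120 bases (ENSSSCT00000061886) was at 8.72, 2.54, 11.3, 5.52 and 8.29 FPKM in DDB1_KD and at 11.39, 11.36, 16.4, 22.6 and 18.2 in NC. It was the only 1 of 34 tested isoforms of these genes whose groups did not overlap in FPKM. The background was 0.373% of all 11250 isoforms tested. The margin between DDB1_KD replicate 3 and NC replicates 1 and 2 was narrow. In estimated counts, not scaled to depth, DDB1_KD replicate 3 (2068) lay above NC replicate 1 (1717). The mean of this isoform was 7.28 ± 3.36 FPKM (SD, n = 5) in DDB1_KD and 16.0 ± 4.8 (SD, n = 5) in NC. The log2 fold change was -1.09 (SE 0.41), with an unadjusted p of 0.0227 and an adjusted p of 0.9997 in the edgeR quasi-likelihood test with Benjamini-Hochberg adjustment. How well reads separate the listed isoforms was not tested. ALDOA also overlaps PPP4C on its own strand. An isoform of 18 exons (ENSSSCT00000040675) held 45.5% of the ALDOA FPKM in NC replicate 1, its highest share. It was at 0 in 2 DDB1_KD and 3 NC libraries. How far reads of PPP4C enter the ALDOA level and the ALDOA share was not tested.

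ALDOC ranged from 1.71 to 5.71 FPKM in DDB1_KD and from 1.78 to 4.68 in NC, with a log2 fold change of 0.40 (SE 0.37). Its value cannot be assigned to the aldolase alone. An isoform of 33 exons (ENSSSCT00000065042) held 99.99% of its counts, and the span of this gene (chromosome 12, 44823014 to 44848483) also includes SPAG5, a mitotic spindle gene, whose own entry had 0 counts in every library. Reads of ALDOC and SPAG5 cannot be told apart here.

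**Figure D3:**
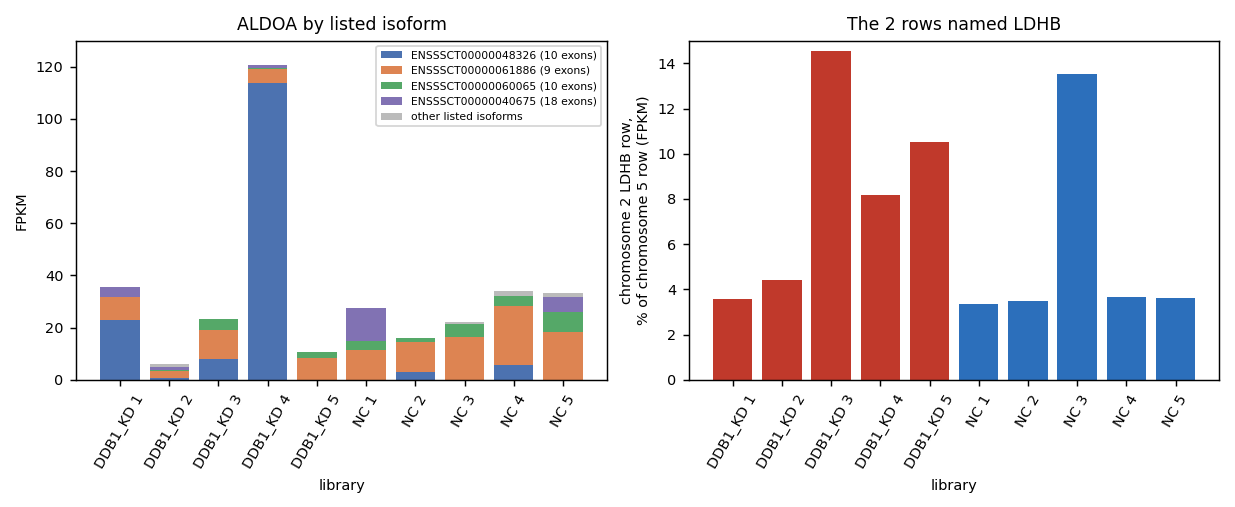
Left, ALDOA FPKM by listed isoform in each library, stacked, with the 4 isoforms of highest mean level coloured. The 10-exon isoform ENSSSCT00000048326 makes up most of the 120.6 FPKM of DDB1_KD replicate 4. Right, FPKM of the second gene named LDHB, on chromosome 2, as a percentage of the chromosome 5 gene: 3.35 to 4.42% in 6 libraries and 8.19 to 14.5% in 4.

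TPI1 interconverts the 2 triose phosphates, and GAPDH oxidises glyceraldehyde 3-phosphate. TPI1 spanned 7.65 to 42.3 FPKM in DDB1_KD and 12.6 to 29.6 in NC (log2 fold change -0.16, SE 0.36). GAPDH (chromosome 5, 64126481 to 64133991, minus strand), often used as a reference gene, was at 62.2, 20.7, 60.4, 144 and 21.1 FPKM in DDB1_KD and 83.1, 33.9, 64.0, 136 and 39.2 in NC. The spread between libraries of the same group reached several fold in both groups, and the log2 fold change was -0.23 (SE 0.52). Its within-group SD of log2 depth-scaled counts (CPM), 0.99, was the largest of the 24 genes. The sign of the GAPDH fold change turned when DDB1_KD replicate 2 (0.0023) or NC replicate 4 (0.18) was left out. GAPDH overlaps IFFO1 and TPI1 overlaps SPSB2 on the opposite strand, as 14 of the 33 genes overlap some listed gene on that strand. On either strand 18 do. TPI1 overlaps USP5 and ENO2 on its own strand, and PKM overlaps PARP6 and GRAMD2A. The sources used here do not say if strand was used in counting.

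PGK1 makes the first ATP of the pathway. PGK1 (chromosome X, 62187404 to 62210705, plus strand) was at 60.8, 118, 94.1, 78.5 and 96.5 FPKM in DDB1_KD and 57.8, 60.9, 66.1, 70.7 and 84.9 in NC. Apart from DDB1_KD replicates 1 and 4, the DDB1_KD values lay above every NC value. The means were 89.6 ± 21.5 (SD, n = 5) and 68.1 ± 10.6 (SD, n = 5), and the log2 fold change of 0.41 (SE 0.20) had an unadjusted p of 0.0582 and an adjusted p of 0.977 (edgeR quasi-likelihood, Benjamini-Hochberg). PGAM1, the mutase that follows, averaged 47.9 ± 13.3 and 54.8 ± 18.7 FPKM (log2 fold change -0.21, SE 0.31). PGK1 lay above PGAM1 in all 10 libraries, and in summed isoform FPKM above GAPDH in 6. The order against GAPDH depended on the unit. By deposited gene FPKM, GAPDH averaged 14.1 and PGK1 78.9. By counts GAPDH exceeded PGK1 only in replicate 4 of each group.

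Enolase makes phosphoenolpyruvate. ENO1 (chromosome 6, 69385486 to 69401668, minus strand), the ubiquitous isozyme, was at 81.4, 53.1, 88.5, 134 and 62.4 FPKM in DDB1_KD and 156, 81.8, 120, 135 and 205 in NC. DDB1_KD replicate 4 fell among the NC values and NC replicate 2 among the DDB1_KD values, and the other 8 libraries separated by group. The means were 84.0 ± 31.6 (SD, n = 5) and 139 ± 45.4 (SD, n = 5). ENO1 had the smallest p of the 24 genes: log2 fold change -0.73 (SE 0.26), unadjusted p 0.0161 and adjusted p 0.977 (edgeR quasi-likelihood, Benjamini-Hochberg). With each library left out in turn the log2 fold change lay between -0.90 and -0.58. Its 12-exon isoform ENSSSCT00000057337, which holds 99.5% of the ENO1 counts and is therefore the same measurement, gave -0.75 (SE 0.26).

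ENO1 and PGK1, neighbours in the pathway apart from PGAM1, thus had fitted values of opposite sign. ENO1 was above PGK1 in 5 of 5 NC libraries and in 2 of 5 DDB1_KD libraries. That ordering was noticed in the values and was not tested. ENO3, the muscle isozyme, averaged 0.911 ± 0.282 and 1.27 ± 0.49 FPKM (SD, n = 5 each). ENO2, the neuronal isozyme, had no counts in 2 DDB1_KD and 3 NC libraries. ENO1 accounted for 98.6 to 99.4% of the enolase level in every library, with means of 98.9% in DDB1_KD and 99.1% in NC (exact permutation p 0.159, two-sided, n = 5 and 5).

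PKM, pyruvate kinase of most tissues outside liver and red cells, makes pyruvate and ATP. It was at 19.2, 8.22, 20.3, 54.3 and 14.2 FPKM in DDB1_KD and 16.9, 13.5, 21.3, 23.4 and 24.5 in NC. The value of DDB1_KD replicate 4 stood above all others, and the log2 fold change of 0.20 (SE 0.39) became -0.29 without it. An isoform of 11 exons (ENSSSCT00000002159) held over 50% of PKM in all 10 libraries.

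Lactate dehydrogenase is a tetramer of the LDHA (M) and LDHB (H) subunits. LDHB (chromosome 5, 51810967 to 51831490, plus strand) was at 1596, 948, 1873, 2223 and 1735 FPKM in DDB1_KD and 1606, 1970, 1762, 1968 and 2200 in NC. DDB1_KD replicate 2 was the lowest library, and the other 9 lay within 1596 to 2223. The log2 fold change was -0.18 (SE 0.22), moving between -0.25 and -0.02 with 1 library left out, the latter without DDB1_KD replicate 2. LDHA was at 21.5, 23.4, 42.4, 33.7 and 25.6 FPKM in DDB1_KD and 24.4, 22.8, 48.0, 22.7 and 25.8 in NC (log2 fold change 0.05, SE 0.27). The LDHB level exceeded that of LDHA by 36.7- to 86.7-fold. LDHB therefore made up 97.3 to 98.9% of the pair, with means of 98.2% ± 0.49 (SD, n = 5) in DDB1_KD and 98.5% ± 0.65 (SD, n = 5) in NC and an exact permutation p of 0.476.

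A minor 7-exon LDHB isoform (ENSSSCT00000064500) had 5330 counts in DDB1_KD replicate 1 and 2104 in DDB1_KD replicate 4, and 0 in the other 8 libraries, all NC libraries included. It made up 5.14 and 1.94% of LDHB in those 2 libraries. edgeR gave it an unadjusted p of 0.0271 and an adjusted p of 0.9997, and DESeq2 an adjusted p of 5.91e-16, which rests on these 2 libraries. It was the only member isoform past the threshold in DESeq2, where 68 of the 11250 isoforms tested passed. In edgeR 0 of the 34 tested member isoforms passed and 3 had an unadjusted p under 0.05 (ALDOA, ENO1 and LDHB, named above), with backgrounds of 0.00889% and 3.36% of all isoforms tested.

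**Figure D4:**
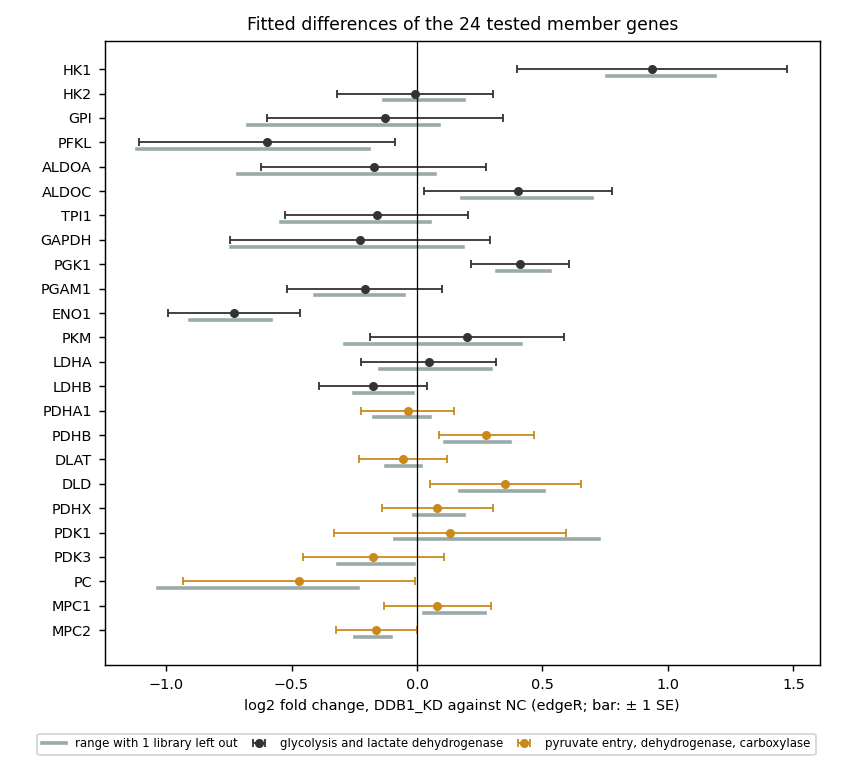
Log2 fold change of DDB1_KD against NC for the 24 tested genes (edgeR, ± 1 SE), in pathway order, with grey bars for the range when each library is left out in turn (HK1, below the filter without DDB1_KD replicate 1, 4 or 5, has no value for those). ENO1 at -0.73 and PGK1 at 0.41 lie farthest from 0 relative to their SE, and the grey bars cross 0 for 11 of the 24 genes.

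MPC1 and MPC2 together form the mitochondrial pyruvate carrier. MPC1 was at 211, 216, 143, 210 and 209 FPKM in DDB1_KD and 153, 173, 171, 264 and 171 in NC. Within each group 4 libraries were close together, with DDB1_KD replicate 3 below its group and NC replicate 4 above. The log2 fold change was 0.08 (SE 0.21). MPC2 was steadier, 85.0 ± 10.2 FPKM (SD, n = 5) against 96.3 ± 7.2 (SD, n = 5), with a log2 fold change of -0.16 (SE 0.16). MPC1 was above MPC2 per length in all 10 libraries, 69.6% ± 6.2 of the pair in DDB1_KD and 65.4% ± 5.3 in NC (exact permutation p 0.230, n = 5 and 5, 0.518 adjusted over the 9 shares). This order depends on the gene model: the only listed MPC1 isoform is 330 bases long and MPC2 is listed with 1359, and by counts alone MPC1 made up 34.0% of the pair.

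The pyruvate dehydrogenase complex is built from the E1 subunits PDHA1 and PDHB, the E2 core DLAT, the E3 enzyme DLD, which other dehydrogenase complexes share, and the binding protein PDHX. PDHA1 averaged 76.1 ± 22.1 FPKM (SD, n = 5) in DDB1_KD and 77.9 ± 15.7 (SD, n = 5) in NC. Its log2 fold change was -0.04 (SE 0.19). PDHB was at 30.7, 44.7, 57.3, 38.9 and 35.2 FPKM in DDB1_KD and 31.9, 31.5, 40.0, 32.3 and 36.9 in NC. DDB1_KD held both the highest and the lowest PDHB library, with a log2 fold change of 0.28 (SE 0.19). PDHB overlaps PXK on the opposite strand and PDHA1 overlaps MAP3K15.

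PDHA1 and PDHB enter the complex in equal numbers, and the PDHA1 share of their summed level was 64.2% ± 9.7 (SD, n = 5) in DDB1_KD and 69.0% ± 3.0 (SD, n = 5) in NC (exact permutation p 0.357, 0.536 adjusted). It ran from 49.9 to 74.3% in DDB1_KD and from 65.7 to 73.5% in NC. The difference of -4.82 points became -1.25 without DDB1_KD replicate 3 and -7.35 without DDB1_KD replicate 4. DLAT was among the steadiest of the genes, 10.3 ± 1.9 and 10.7 ± 0.83 FPKM (log2 fold change -0.05, SE 0.18). DLD lay above DLAT and PDHX in all 10 libraries, at 85.6 to 165 FPKM in DDB1_KD and 49.3 to 127 in NC (log2 fold change 0.35, SE 0.30). PDHX averaged 24.2 ± 7.3 and 22.6 ± 3.3 FPKM (log2 fold change 0.08, SE 0.22).

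PDK1, PDK2 and PDK3 phosphorylate and inactivate E1. PDK3 was the leading kinase in all 10 libraries, with 4.73 ± 1.47 FPKM (SD, n = 5) in DDB1_KD and 5.32 ± 1.42 (SD, n = 5) in NC. PDK1 was at 2.05, 1.38, 1.67, 2.15 and 2.61 FPKM in DDB1_KD and 1.47, 1.37, 1.57, 0.578 and 4.41 in NC. NC thus held both the highest and the lowest PDK1 library, and the log2 fold change was 0.13 (SE 0.46). PDK2 averaged 0.254 and 0.271 FPKM. The PDK3 share was 67.6% ± 5.4 (SD, n = 5) in DDB1_KD and 71.9% ± 15.6 (SD, n = 5) in NC, with an exact permutation p of 0.579, and the difference of -4.29 points became 0.82 points without NC replicate 4.

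Pyruvate carboxylase (PC) makes oxaloacetate from pyruvate, and PCK2, the mitochondrial phosphoenolpyruvate carboxykinase, draws on oxaloacetate. PC was at 4.80, 1.29, 2.38, 10.7 and 2.48 FPKM in DDB1_KD and 6.87, 4.93, 3.93, 5.48 and 8.15 in NC. Of the DDB1_KD libraries, replicates 2, 3 and 5 were below every NC library and replicate 4 above every one. The log2 fold change was -0.47 (SE 0.46), and -1.03 without DDB1_KD replicate 4. PCK2 was at most 0.287 FPKM, with 0 counts in 1 NC library.

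Divided by role, the 14 tested genes of glycolysis and lactate dehydrogenase were 5 higher and 9 lower in DDB1_KD. The median log2 fold change was -0.14, and 1 (ENO1) had an unadjusted p under 0.05. The 10 tested genes of pyruvate entry, dehydrogenase and carboxylase were 5 higher and 5 lower, with a median of 0.02. The former varied more between libraries of the same group: the median within-group SD of log2 CPM was 0.66 for the 14, 0.30 for the 10 and 0.51 over all genes tested.

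**Figure D5:**
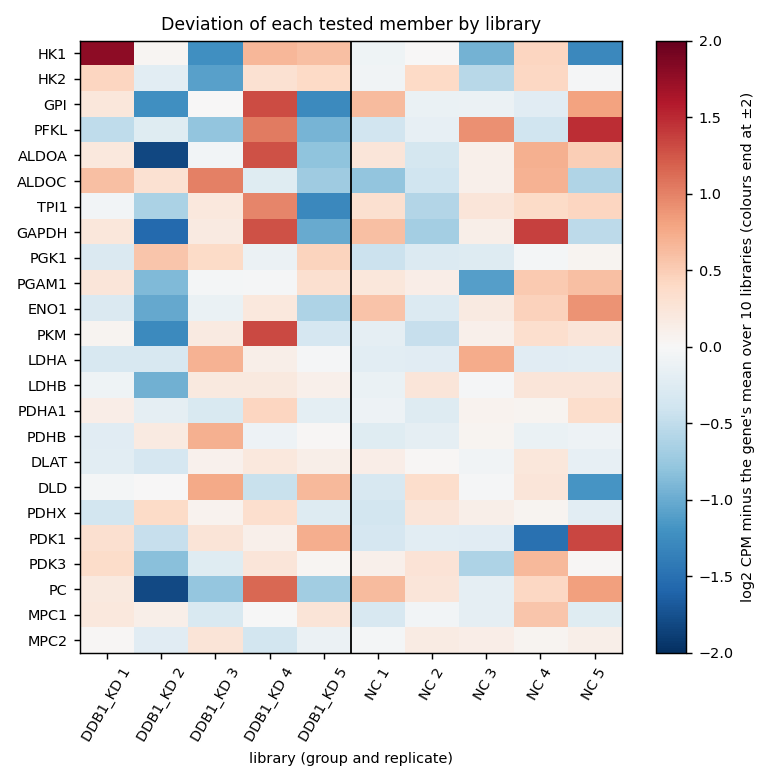
Log2 CPM of each tested gene minus its mean over the 10 libraries, by library, with DDB1_KD to the left of the line. In DDB1_KD replicate 2 the glycolytic genes are mostly blue (median -0.76) and in DDB1_KD replicate 4 mostly red (median 0.48), while the genes from PDHA1 downwards are mostly paler, with exceptions among DLD, PDK1 and PC.

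The glycolytic genes differed between libraries. Their median deviation from the mean of each gene was 0.13, -0.76, 0.09, 0.48 and -0.47 log2 units in DDB1_KD replicates 1 to 5, and -0.08, -0.25, 0.10, 0.40 and 0.24 in NC replicates 1 to 5. The largest and the smallest were both DDB1_KD libraries. Single genes went the other way: in DDB1_KD replicate 2 PGK1 was at 0.55 and ALDOC at 0.31, and in DDB1_KD replicate 4 they were at -0.12 and -0.23. Whether these genes vary together was not tested. DDB1_KD replicate 2 was the lowest library for 9 of the 24 genes, and DDB1_KD replicate 4 the highest for 6. The maternal oocyte list moved between libraries too. Its mean log2 CPM was 1.33, 4.79, 4.67, 3.09 and 4.57 in DDB1_KD and 2.78, 3.29, 4.15, 2.54 and 2.24 in NC, highest in DDB1_KD replicate 2. The part of these transcripts in the values above was not tested.

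The direction of the set turned without DDB1_KD replicate 2, and stayed the same without DDB1_KD replicate 4 or without both. Without DDB1_KD replicate 2, 15 of 24 genes were higher and 9 lower, with a median of 0.04. Without DDB1_KD replicate 4, 7 of 23 tested were higher and 16 lower, with a median of -0.17. PGK1, PC, ENO1 and PFKL then had an unadjusted p under 0.05 in edgeR, beside 10.4% of all genes, and the smallest adjusted p of any gene was 0.471. With both omitted, 7 were higher and 16 lower, the median was -0.05, and PC, ENO1 and PFKL were under 0.05, beside 5.14% of all genes. ENO1 was the only 1 of these genes with an unadjusted p under 0.05 under every omission of a library.

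Among genes around the pathway, taken from 7 further lists, none passed the adjusted threshold or had an unadjusted p under 0.05 in edgeR. Of glucose and lactate transporters, 2 of the 5 tested were higher and 3 lower. SLC16A1, a lactate and pyruvate transporter, averaged 133 ± 34 FPKM (SD, n = 5) in DDB1_KD and 110 ± 19 (SD, n = 5) in NC (log2 fold change 0.29, SE 0.23). SLC2A8, a glucose transporter, averaged 1.07 and 1.77 FPKM (-0.79, SE 0.83), and SLC2A3, another, 1.07 and 0.742 FPKM, below the filter as a gene. Other genes of glycolysis and gluconeogenesis were 3 higher and 7 lower of 10. Among them GPD2, the mitochondrial glycerol 3-phosphate dehydrogenase, was lower in the fit (log2 fold change -0.69, SE 0.41), and LDHC, the germ-cell lactate dehydrogenase, higher (0.68, SE 0.45).

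Regulation of pyruvate dehydrogenase and lipoate synthesis had 3 higher and 3 lower of 6. LIAS, which makes the lipoyl group that DLAT carries, was at 55.5 ± 15.2 FPKM (SD, n = 5) and 39.4 ± 5.8 (SD, n = 5), with a log2 fold change of 0.51 (SE 0.24) and an unadjusted p of 0.0555 in edgeR. LIPT1, a lipoyl transferase, had -0.25 (SE 0.25). All 6 tested genes of the pentose phosphate pathway, which branches from glucose 6-phosphate, had a fitted value below 0, with a median of -0.24. PGD was at 3.93 ± 2.20 and 6.36 ± 1.70 FPKM (-0.69, SE 0.39) and TALDO1 at 42.1 ± 10.3 and 55.2 ± 15.5 (-0.37, SE 0.22). The citrate cycle had 7 higher and 11 lower of 18, with SDHD at 0.33 (SE 0.23) and SUCLG2 at -0.28 (SE 0.23).

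Glycogen metabolism had 4 higher and 3 lower of 7, with GBE1, the branching enzyme, at 0.25 (SE 0.36). Of 9 tested regulators of glycolytic genes 1 was higher and 8 lower, with a median of -0.27. EGLN1, the oxygen-sensing hydroxylase that marks HIF for degradation, averaged 3.12 ± 1.87 and 5.10 ± 1.64 FPKM (-0.75, SE 0.41). MYC, a transcription factor of growth genes, was at 1.74 ± 1.43 and 3.50 ± 1.31 FPKM (-0.96, SE 0.68). The groups overlapped in each of the genes named from these lists.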

How the data were processed

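The estimated counts and FPKM values of genes and isoforms are those the authors deposited, per the file headers. The submitters' processing notes name fastp, HISAT2, StringTie and edgeR, among others, and the build susScr11. The sources used here do not say if the estimated counts tally reads or derive from coverage, or if strand was used. Groups and replicate numbers came from the sample titles. The member genes and the further lists were chosen with earlier results of these data known. Named are every member, DDB1, and from each further list the genes with the smallest and second smallest p. Of the glycogen list 1 such gene is not reported here. SLC2A3, SPAG5 and the second LDHB gene were named after their values were seen.

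A deposited gene FPKM divides by 1 fixed length (checked within 0.5% in all 8040 genes with at least 50 counts in every library). For genes with several isoforms that length can exceed those of the isoforms, so levels here are isoform FPKM summed per gene. The summed level is 4.72 times the deposited one for GAPDH, 3.22 for PKM, 2.88 for ALDOA and 1.40 for LDHA, against a median of 1.01.

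Genes and isoforms with a mean deposited FPKM of at least 1 were tested with edgeR 4.0.16 (glmQLFit, glmQLFTest, TMM scaling, group alone) on the counts as deposited, which are whole, with Benjamini-Hochberg adjustment over all tested (8476 genes, 11250 isoforms) at 0.05. Isozyme shares were compared by exact permutation over 252 assignments. limma 3.58.1 and DESeq2 1.42.0 were run beside it. The edgeR fits were tested on simulated data. Log2 CPM used a prior count of 2. Depth was 32466912 to 50911295 estimated counts per library, and limits from a count of 0 cover counting error only.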

Additional observations from a re-analysis of the deposited data

Results flagged for a closer look

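A library was listed when it stood apart from the other 4 of its group by Dixon's test. This held for 11 of 66 groups of values examined, where chance gives about 1 in 20, or 3.3, if groups are independent and values normally distributed. Shares are computed from the gene levels, so some libraries are flagged for both, and normality was not checked. The 3.3 is therefore only a rough guide. DDB1_KD replicate 4 stood above its group in PFKL (3.84 FPKM, others 0.816 to 1.50), in ALDOA (120.6, others 6.17 to 35.6) and in PKM (54.3, others 8.22 to 20.3). Of its ALDOA level, 113.7 FPKM was the isoform of 1467 bases. In estimated counts, not scaled to depth, ALDOA was at 6589 there and at 946 to 3627 in the others. Dixon's test was run on FPKM and shares, not on counts.

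NC replicate 3 stood apart in LDHA, at 48.0 FPKM where the others had 22.7 to 25.8, and with it in the LDHB share, 97.3% against 98.5 to 98.9%. NC replicate 5 had 4.41 FPKM of PDK1, the others 0.578 to 1.57. DDB1_KD replicate 1 had an HK2 share of 66.6%, the others 80.1 to 85.3%.

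MPC1 was flagged in both groups. It was low in DDB1_KD replicate 3, at 143 FPKM against 209 to 216, and its share of the carrier there was 58.6% against 70.4 to 73.1%. It was high in NC replicate 4, at 264 FPKM against 153 to 173, with a share of 74.7% against 62.1 to 64.2%.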

How the results depend on the processing

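The count of 0 passing member genes held under every alternative run. The gene count of 0 became 2 in DESeq2, where DDB1 passed (log2 fold change -1.36). The isoform count of 1 became 0 without a filter, at a mean FPKM of at least 5 and with replicates 2 and 4 of DDB1_KD omitted, 2 in limma with a pseudocount of 0.1 and 68 in DESeq2, of which 1 was a member isoform. Omitting those 2 libraries together, and shares from deposited gene FPKM, were chosen after seeing the data. Same-numbered libraries correlated at -0.14 to 0.35, over 0.1 in 2 of 5 pairs and with 1 of 5 DDB1_KD libraries closest to its own number. These 5 correlations cannot tell whether same-numbered libraries share a culture or a batch, and the main fit did not pair them. With the replicate number as a block, 0 genes and 0 isoforms passed and PKM became -0.0187.

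With 1 library left out the isoform count ran from 0 to 2, the member median from -0.172 to 0.0353, members lower from 9 to 16, the PFKL share difference from -5.33 to 3.20 points and that of PDK3 from -9.20 to 0.82. Fold changes that changed sign in such omissions ran from -0.13 to 0.19 for HK2, -0.67 to 0.0874 for GPI, -0.71 to 0.0715 for ALDOA, -0.54 to 0.0513 for TPI1, -0.74 to 0.18 for GAPDH, -0.29 to 0.42 for PKM, -0.15 to 0.30 for LDHA, -0.17 to 0.0522 for PDHA1, -0.12 to 0.0171 for DLAT, -0.0126 to 0.187 for PDHX, -0.0872 to 0.723 for PDK1 and -0.10 to 0.41 for GBE1. Otherwise HK2 turned to 0.0083 with RLE size factors, 0.0012 with library totals and 0.0083 in DESeq2. PKM turned to -0.0202 in limma with a pseudocount of 0.1 and to -0.0524 with the 2 libraries omitted, and PDHX to -0.16 in the latter. The cause was not tested. HK1 fell below the filter, leaving 23 genes tested, without DDB1_KD replicate 1, 4 or 5. Genes near 1 FPKM, such as HK1, rest on as few as 59 counts in a library.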

Other observations

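The second gene named LDHB (chromosome 2, 12988754 to 12990030, minus strand), with 1 isoform, was at 41.9 to 272 FPKM. As a share of the chromosome 5 gene it was 3.35 to 4.42% in 6 libraries. It was 14.5% in DDB1_KD replicate 3, 8.19% in DDB1_KD replicate 4, 10.5% in DDB1_KD replicate 5 and 13.5% in NC replicate 3. Its log2 fold change was 0.56 (SE 0.53, unadjusted p 0.311 in edgeR). It was 0.19 when DDB1_KD replicate 3 was left out and 1.12 (unadjusted p 0.0432) when NC replicate 3 was. Counting both genes as LDHB left its share over LDHA at 97.7 to 98.9%. The sources used here do not say how reads were divided between the 2 genes. The libraries with a high share were not selected by label, and no comparison was made between them and the rest.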
